A study of Mus musculus with 3 samples.

Results

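The Gimap genes, which encode small GTP-binding proteins of lymphocytes, were followed in multipotent progenitor cells (MPPs) from Mef2c-deficient and control mice. The family was defined by name as Gimap1, Gimap3, Gimap4, Gimap5, Gimap6, Gimap7, Gimap8 and Gimap9. Of these 8 genes, 7 had a probe under that name or a synonym in the array files, with 10 probes among 41174, and no probe of Gimap8 was analysed here. All 10 probes passed the filter on dim signals, so the family contributed 7 of the 22222 genes tested. Gimap3 passed only through the Mef2c-deficient libraries, where it was well above background in 2 of 3, against 1 of 3 controls. The family was taken up with the Mef2c-deficient over control ratios of these arrays already known, so those ratios are given as a description and support nothing by themselves.

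By its title the series concerns how Mef2c, a DNA-binding regulator of transcription, bears on lymphoid against myeloid fate. Mutant mice were Mx1-Cre Mef2c f/f, in which the Mx1 promoter drives the Cre recombinase in cells that respond to interferon, and controls were Mef2c f/f without Cre. Both groups received 250 µg of poly(I:C) on each of 4 days, and 15000 lineage-negative c-kit+ Sca-1+ bone marrow cells per sample were sorted 2 days after the last dose. Age and the number of animals behind a sample are not given in the labels. On each of 3 Agilent arrays a Mef2c-deficient library in Cy3 was hybridised with a control library in Cy5, with no dye swap in the labels, so an effect of the dye or of Cre itself cannot be told apart from the loss of Mef2c.

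Gimap proteins (GTPases of immunity-associated proteins) share a GTP-binding domain and many sit on membranes inside the cell. Their genes lie side by side in a single cluster and are expressed mainly in cells of the lymphoid line. Loss of some members, Gimap1 and Gimap5 in mice among them, leaves animals short of mature lymphocytes, so the family is known for the survival of these cells.

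In GRCm38.p6 the cluster lies on chromosome 6, from the start of Gimap8 at position 48647186 to the end of Gimap3 at position 48770851, in the order Gimap8, Gimap9, Gimap4, Gimap6, Gimap7, Gimap1, Gimap5, Gimap3. The promoters of 6 members are shown: those of the 5 members with lower signal on every array as labelled, Gimap9, Gimap4, Gimap6, Gimap7 and Gimap1, and that of Gimap5, which had no common direction. Both descriptions hold for the probe that represented each gene in the fit. Each sequence is the 250 bases before the annotated start, 5′ to 3′ on the gene's own strand, from RefSeq. Capitals mark a RUNX motif (TGTGGT, which reads ACCACA on the other strand) in Gimap4, Gimap7 and Gimap1, and an ETS motif (GGAAGT) in Gimap6 and Gimap5, while Gimap9 held neither.
Gimap9 (chr6:48675885-48676134, plus strand): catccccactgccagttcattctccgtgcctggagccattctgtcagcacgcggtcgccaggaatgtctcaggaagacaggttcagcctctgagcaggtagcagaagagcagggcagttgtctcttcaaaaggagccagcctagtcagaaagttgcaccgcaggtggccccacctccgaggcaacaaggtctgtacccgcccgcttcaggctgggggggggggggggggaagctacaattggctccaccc
Gimap4 (chr6:48684328-48684577, plus strand): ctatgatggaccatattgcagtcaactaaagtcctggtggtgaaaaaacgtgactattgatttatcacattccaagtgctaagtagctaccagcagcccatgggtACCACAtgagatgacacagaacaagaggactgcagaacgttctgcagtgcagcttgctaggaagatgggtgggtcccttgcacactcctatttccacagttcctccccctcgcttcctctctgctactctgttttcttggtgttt
Gimap7 (chr6:48718371-48718620, plus strand): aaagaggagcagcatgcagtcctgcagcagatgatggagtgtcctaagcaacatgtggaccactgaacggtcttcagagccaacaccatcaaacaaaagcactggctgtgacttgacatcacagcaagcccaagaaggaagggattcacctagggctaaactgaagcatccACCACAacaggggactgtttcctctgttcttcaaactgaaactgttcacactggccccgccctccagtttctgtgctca
Gimap1 (chr6:48738797-48739046, plus strand): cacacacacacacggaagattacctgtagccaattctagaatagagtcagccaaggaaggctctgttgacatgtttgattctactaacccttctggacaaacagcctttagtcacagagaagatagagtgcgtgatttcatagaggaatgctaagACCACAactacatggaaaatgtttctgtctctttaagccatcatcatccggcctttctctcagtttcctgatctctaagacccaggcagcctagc
Gimap6 (chr6:48708245-48708494, minus strand): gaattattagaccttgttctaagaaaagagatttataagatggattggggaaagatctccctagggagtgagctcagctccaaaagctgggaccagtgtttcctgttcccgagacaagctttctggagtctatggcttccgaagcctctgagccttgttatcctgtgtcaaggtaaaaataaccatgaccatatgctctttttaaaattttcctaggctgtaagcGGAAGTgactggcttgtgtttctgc
Gimap5 (chr6:48745947-48746196, plus strand): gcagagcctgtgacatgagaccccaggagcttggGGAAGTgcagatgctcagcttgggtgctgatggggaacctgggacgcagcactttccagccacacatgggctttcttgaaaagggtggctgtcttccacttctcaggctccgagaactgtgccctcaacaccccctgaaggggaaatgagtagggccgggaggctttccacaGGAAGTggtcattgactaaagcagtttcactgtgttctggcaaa

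Letters of both motifs were searched on both strands in the same 250 bases of all 32851 RefSeq promoters. The RUNX letters occurred in 3 of 9 Gimap promoters, Gimap8 having a pair of annotated starts, against 14% of all promoters. They began 145 bases before the start in Gimap4, 79 in Gimap7 and 95 in Gimap1. The ETS letters occurred in 2 of 9 Gimap promoters, against 19.7% of all, 25 bases before the start in Gimap6 and 216 and 44 bases before it in Gimap5. No Gimap promoter held the MEF2 consensus, found in 2.92% of all promoters, the TCF letters CTTTGA (13.8%) or the GATA letters AGATAA (9.99%). These matches describe letters in a window, and no binding was measured.

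Control library 1 stood apart in neutrophil and immediate early genes. The log2 of the summed signal of 10 neutrophil markers was 13.82 to 14.17 in Mef2c-deficient libraries, against 16.65 in control library 1 and 13.85 and 14.30 in the other controls. For 10 immediate early genes it was 16.10 to 16.99 in Mef2c-deficient libraries, against 19.05 in control library 1 and 17.46 and 17.09 in the other controls. The mean log2 ratios farthest from 0 in these lists, with all arrays as labelled, were those of Ngp (-1.95), S100a9 (-1.94), Atf3 (-2.62) and Egr1 (-2.61). Mef2c itself had mean log2 ratios of -0.26 ± 0.61 (SD, n = 3) for the probe of NM_025282, with only array 3 below 0, and 0.52 ± 0.48 for that of AK044643, and the floxed stretch of Mef2c is not stated in the labels. Nor do the labels tie replicates to separate animals, in which case a p-value reflects the spread of these 3 arrays alone, which may be technical.

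The direction of array 2 is not settled. Over all probes, the columns of arrays 1 and 3 in the authors' deposited table ran against the scanner's Cy5 over Cy3 ratio (correlations of -0.947 and -0.939), while the column of array 2 ran with it (0.935), although the labels give all arrays the same dyes. For Gimap1 the authors' deposited table holds -1.04, 1.85 and -1.23 on arrays 1, 2 and 3. A dye swap on array 2 and a sign change made in the deposited column alone cannot be told apart, so the means are also given with the sign of array 2 turned.

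As labelled, 5 of the 7 measured Gimap genes had lower signal in Mef2c-deficient MPPs than in controls on every array: Gimap1, Gimap6, Gimap4, Gimap7 and Gimap9. Their mean log2 ratios lay between -1.37 and -0.77, which is 38.7% to 58.8% of the control signal. Gimap5 and Gimap3 had no common direction over the arrays. These directions are those of the probe that represented each gene in the fit. The other probe of Gimap5 was below 0 on every array, and the other probe of Gimap7 was above 0 on array 1 (0.061). In bulk samples, fewer cells of a type and less RNA per cell cannot be told apart.

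Gimap1, which mouse T and B cells need to mature, had the lowest mean ratio of the family as labelled. Its signal was 13.16, 12.54 and 12.79 on the log2 scale in Mef2c-deficient libraries 1, 2 and 3, against 14.20, 14.39 and 14.02 in controls. All Mef2c-deficient values lay below all control values. The log2 ratios were -1.04, -1.85 and -1.23, with a mean of -1.37 ± 0.42 (SD, n = 3), and 0.414% of all genes tested had a mean at or below it. With array 2 turned the mean was -0.14 ± 1.72, with 32.35% of all genes at or below it, and Gimap7 was then the lowest of the family.

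Gimap6, whose protein is tied to autophagy through a member of the GABARAP family, had 13.32, 13.11 and 13.69 in Mef2c-deficient libraries, against 14.92, 14.46 and 14.10 in controls. The groups did not overlap, and the gap was narrowest on array 3. Its log2 ratios of -1.60, -1.35 and -0.41 averaged -1.12 ± 0.63 (SD, n = 3), and -0.22 ± 1.49 with array 2 turned.

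Gimap4, a mediator of T cell death in mice, had 8.15, 8.34 and 8.80 in Mef2c-deficient libraries and 9.19, 9.96 and 9.13 in controls. Again every Mef2c-deficient value was under every control value. The mean log2 ratio was -0.995 ± 0.65 (SD, n = 3), from -1.04, -1.62 and -0.33 on the 3 arrays, and with array 2 turned it was 0.085 ± 1.38.

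Gimap9, for which no role is given here, had 12.35, 12.23 and 11.74 in Mef2c-deficient libraries, against 12.99, 12.84 and 12.79 in controls. Its controls were the closest together of these 5 genes, with an SD of 0.11, and the groups did not overlap. The mean log2 ratio was -0.77 ± 0.25 (SD, n = 3), or -0.36 ± 0.86 with array 2 turned.

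Gimap7 was read by a pair of probes. Its human counterpart is known to pair with another family member and speed GTP breakdown. The probe for the mRNA NM_146167 gave 8.05, 7.76 and 7.60 in Mef2c-deficient libraries and 8.94, 8.45 and 8.99 in controls, with no overlap and a mean log2 ratio of -0.99 ± 0.36 (SD, n = 3), or -0.53 ± 1.09 with array 2 turned. The probe for the clone AK041116, which the array design places 5432 bases away on the 5′ side, gave 7.89, 7.89 and 8.15 in Mef2c-deficient libraries, against 7.83, 9.04 and 8.68 in controls. There the groups overlapped, with log2 ratios of 0.061, -1.15 and -0.53. The mRNA probe's ratio lay under that of the clone probe on arrays 1 and 3 and over it on array 2, a mean difference of -0.45 ± 0.79 (SD, n = 3).

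Gimap5, a member required for lymphocyte survival in mice and rats, was read by a pair of probes 6111 bases apart. The probe for the clone AK087160 represented the gene in the fit and gave 9.18, 8.62 and 7.98 in Mef2c-deficient libraries, against 7.92, 9.04 and 8.73 in controls. Array 1 ran opposite to the other arrays, with log2 ratios of 1.26, -0.43 and -0.75 and a mean of 0.028 ± 1.08 (SD, n = 3). Without array 1 that mean was -0.59, and with array 2 turned it was 0.31 ± 1.01. The probe for the mRNA NM_175035 gave 7.55, 7.50 and 7.02 in Mef2c-deficient libraries and 7.67, 7.75 and 7.61 in controls, and these did not overlap. Its log2 ratios of -0.12, -0.24 and -0.59 averaged -0.32 ± 0.25 (SD, n = 3), or -0.15 ± 0.42 with array 2 turned, and it was well above background in 2 of 3 Mef2c-deficient libraries and 3 of 3 controls. Both probes were below 0 on arrays 2 and 3 and differed in sign on array 1 only.

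Gimap3, a close relative of Gimap5 with a protein on mitochondria, lay near background. Its probes for NM_031247 share 50 bases and are not separate readings of the transcript. The one used in the fit gave 6.43, 7.26 and 8.34 in Mef2c-deficient libraries, against 7.27, 6.54 and 6.55 in controls. Only Mef2c-deficient libraries 2 and 3 and control library 1 were well above background. The log2 ratios of -0.84, 0.72 and 1.80 averaged 0.56 ± 1.32 (SD, n = 3), or 0.080 ± 1.49 with array 2 turned. The overlapping probe gave -0.83, 0.49 and 1.56. Whether a probe of Gimap3 or Gimap5 also bound the other transcript was not tested.

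**Figure D1:**
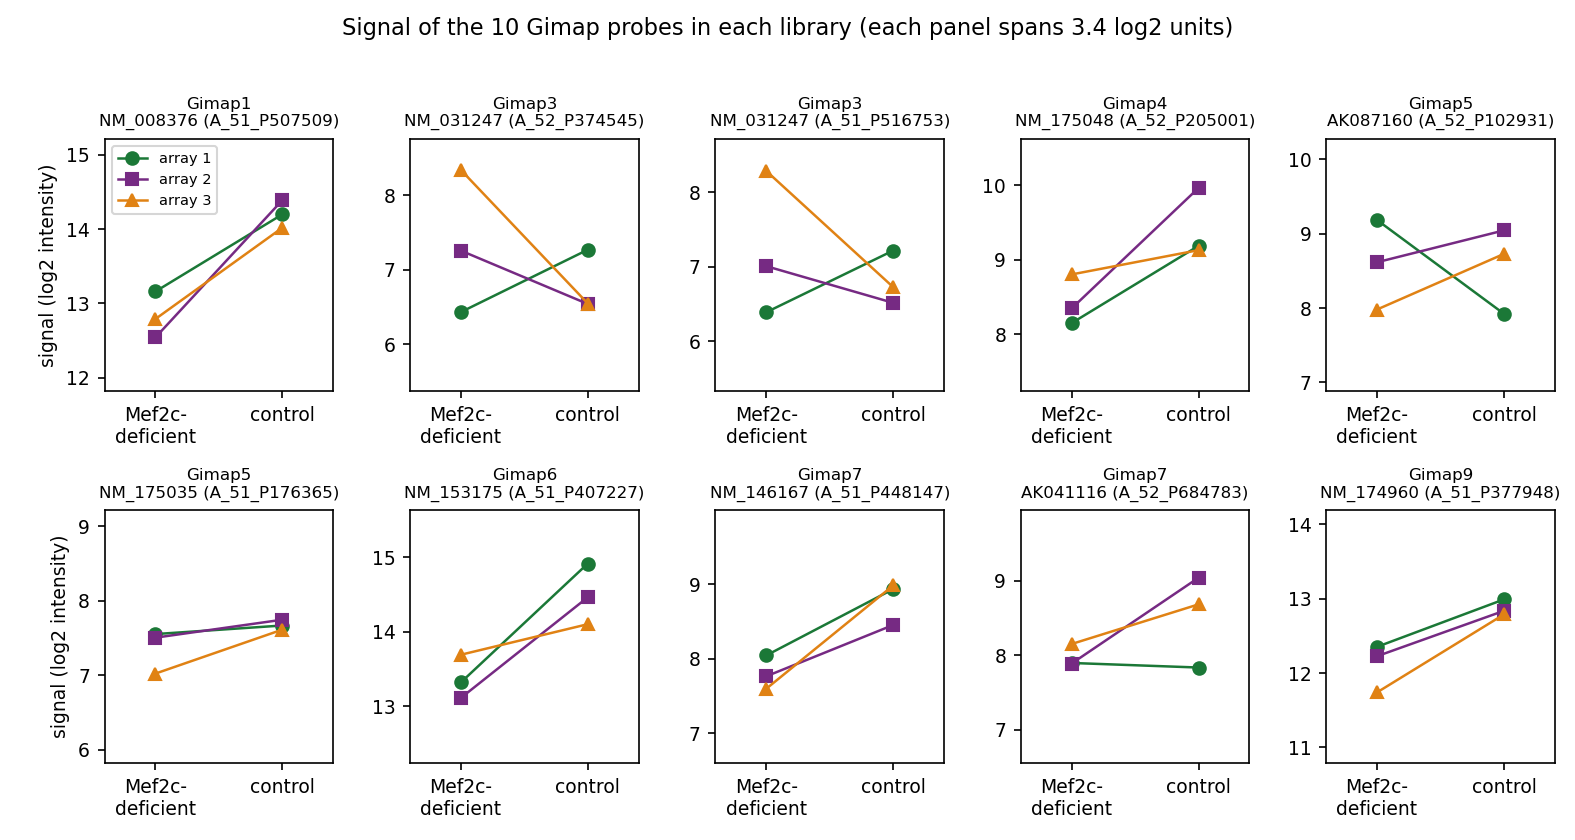
Signal (log2 intensity) of each of the 10 Gimap probes in the Mef2c-deficient library (left) and the control library (right) of each array, with a line joining the libraries of 1 array. Lines slope upward to the control on all 3 arrays for Gimap1, Gimap4, Gimap6, Gimap9, the NM_146167 probe of Gimap7 and the NM_175035 probe of Gimap5, and cross for the other probes.

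In the limma fit over all genes, 0 of 22222 genes and 0 of the 7 Gimap genes had an adjusted p under 0.05. The Gimap genes' adjusted p-values lay between 0.461 and 0.982. Before adjustment, 2251 genes (10.1%) had a p under 0.05, of which 1069 were higher and 1182 lower in Mef2c-deficient cells, the lower ones being 5.32% of all genes. With median centring in place of loess the split was 552 higher and 2319 lower. Of the 7 Gimap genes 5 were among the lower ones, namely Gimap1, Gimap4, Gimap6, Gimap7 and Gimap9. Groups that did not overlap, with the Mef2c-deficient side lower, were found for 11.8% of all genes and for the same 5 Gimap genes. Ratios below 0 on all 3 arrays were found for 20.3% of all genes and again for these 5. With array 2 turned, 0 of the 7 had an unadjusted p under 0.05, against 643 of all 22222 genes.

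The family's median log2 ratio was -0.89, -0.69 and -0.75 on arrays 1, 2 and 3, where the median of all genes was -0.068, -0.055 and 0.0042. On each array 6 of the 7 genes were below 0, against 54.3%, 55.1% and 49.6% of all genes. Turned, array 2 had 1 of the 7 below 0, against 44.9% of all genes, and a family median of 0.69. The member above 0 was Gimap5 on array 1 and Gimap3 on arrays 2 and 3. Without array 1 the means were -1.54 for Gimap1, -0.97 for Gimap4, -0.88 for Gimap6, -1.04 for Gimap7 and -0.83 for Gimap9. The order of the members changed between arrays, as labelled: Gimap6 was the lowest on array 1, Gimap1 on array 2 and Gimap7 on array 3.

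**Figure D2:**
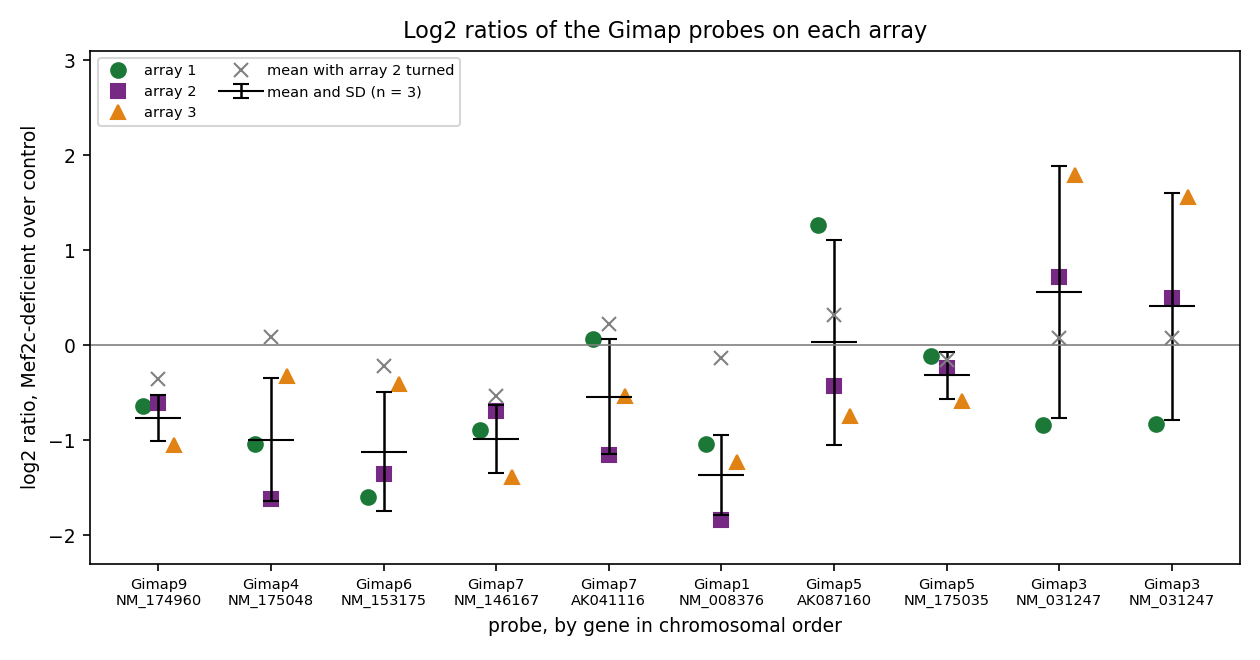
Log2 ratio of Mef2c-deficient over control on each array for the 10 Gimap probes, by gene in chromosomal order, with the mean and SD of 3 arrays (black) and the mean with array 2 turned (gray cross). Gimap9, Gimap4, Gimap6, Gimap1 and the NM_146167 probe of Gimap7 lie below 0 on every array as labelled, with means between -1.37 and -0.77.

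Members were compared with each other by the difference of their log2 ratios within each array, in 21 pairs. With 3 arrays a two-sided exact sign-flip test cannot give a p under 0.25, and over 21 pairs no adjusted p was under 0.583. In 9 pairs the difference had the same sign on all 3 arrays. Most of these held Gimap3 or Gimap5, and pairs that share a member are not independent. By its mRNA probe Gimap7 lay below Gimap9 on each array (Gimap7 minus Gimap9, -0.22 ± 0.13, SD, n = 3), the smallest mean difference of the 9 pairs. Gimap1 lay below Gimap5 by more, at -1.40 ± 0.91. The clone probe of Gimap7, not used in these pairs, lay above Gimap9 on arrays 1 and 3 and below it on array 2. Differences against Gimap3 are not given singly, since it was well above background in only 3 of 6 libraries. With array 2 turned, 0 of these 9 pairs kept a common sign, and the 1 pair that then had one was Gimap4 over Gimap6 (0.30 ± 0.24). Among Gimap1, Gimap4, Gimap6 and Gimap7 no pair kept 1 sign over the arrays as labelled, so their order is not distinguished by these data.

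The neighbours of the cluster on chromosome 6 were read in the same way, and their mean ratios lay on both sides of 0. The 5 nearest measured genes before it were Lrrc61, Rarres2, Repin1, Zfp775 and AI854703, and the 5 after it Tmem176b, Tmem176a, Aoc1, Doxl1 and Svs1. Of these 10 genes 5 had a mean log2 ratio below 0, with a median of -0.024, and 0 had an unadjusted p under 0.05 in the limma fit. The lowest was Repin1, a zinc finger gene, at -0.32 ± 0.39 (SD, n = 3), and the highest was Lrrc61 at 0.58 ± 0.52. Just beyond Gimap3, the membrane protein genes Tmem176b and Tmem176a had -0.12 ± 0.40 and -0.21 ± 0.32. These values are for all arrays as labelled, and means of the neighbours with array 2 turned are not given here. The 5 Gimap genes lower on every array as labelled had means between -0.53 and 0.085 when array 2 was turned. The difference between the cluster and its neighbours was not tested.

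**Figure D3:**
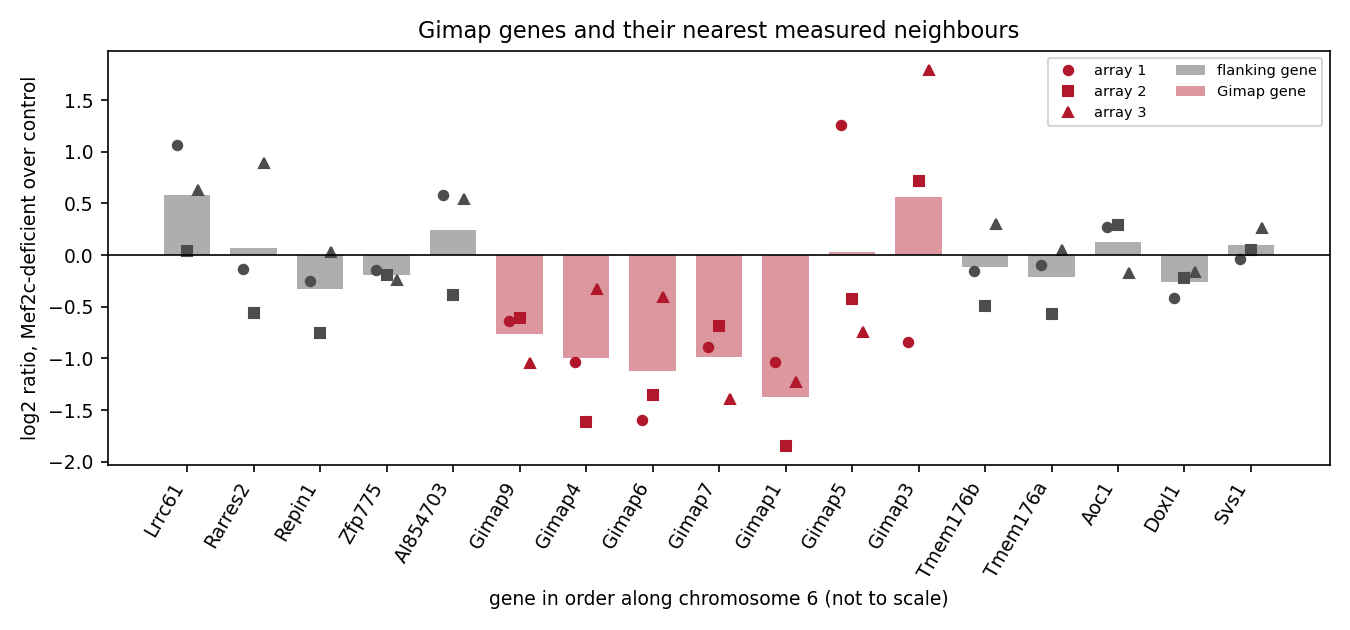
Log2 ratio of Mef2c-deficient over control for the 7 measured Gimap genes (red) and the 5 nearest measured genes on either side (gray) in order along chromosome 6, with bars for the mean and points for the 3 arrays. With all arrays as labelled, the means of the neighbours lie between -0.32 and 0.58, and 5 Gimap genes lie at or below -0.77. Those 5 genes have means between -0.53 and 0.085 with array 2 turned, a setting not shown for the neighbours.

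With array 2 as labelled, genes with a like pattern were sought over the 6 libraries by the root-mean-square difference between centred log2 signals, with the mean of the 6 Gimap genes well above background in every library (all but Gimap3) as the model. Among 15362 other named genes the nearest were Gpr171, a G protein-coupled receptor gene (0.0753), Atcay (0.0806), Fam160b2 (0.0860), H2-T23, which encodes a nonclassical MHC class I molecule (0.0988), and Eef1g, of the translation elongation complex (0.109). Gpr171 had log2 ratios of -0.57, -1.17 and -1.08, and H2-T23 had -0.88, -0.95 and -0.77. These genes were picked as the nearest of 15362, so their distances are small by selection. Distances of the Gimap genes from their own mean, to which each of them contributes, ran between 0.179 for Gimap9 and 0.609 for Gimap5. That mean includes Gimap5, which had no common direction. By this measure Gimap9, the member nearest to the mean, would rank 41 among the other genes, so genes outside the family also came near this mean.

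**Figure D4:**
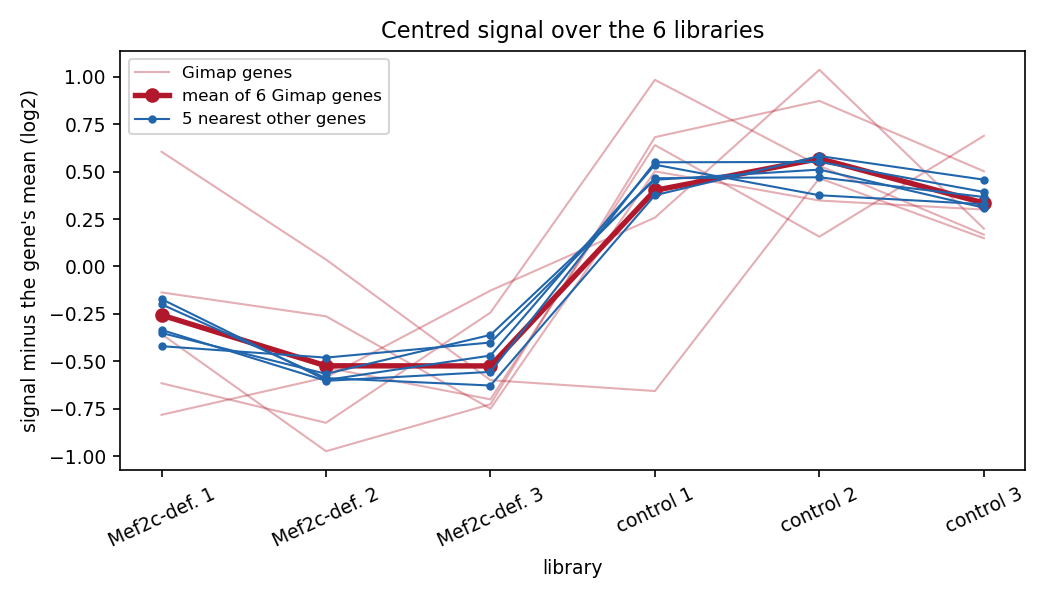
Centred signal (log2, each gene's own mean subtracted) over the 3 Mef2c-deficient and 3 control libraries for 6 Gimap genes (thin red), their mean (thick red) and the 5 nearest other genes (blue). The mean lies between -0.52 and -0.26 in the Mef2c-deficient libraries and between 0.33 and 0.57 in the controls.

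Among 19 genes of Gimap partners and lymphocyte survival, 12 (63.2%) had a mean log2 ratio below 0, against 54.6% of all genes, with a median of -0.21, against -0.044 over all genes. With array 2 turned 11 were below 0, against 51.7% of all genes. At an unadjusted p under 0.05 by limma 2 were lower, against 5.32% of all genes, 0 were higher, and 0 passed over all genes. The 2 were S1pr1 and Il2rg, the second named after its values were seen. S1pr1, the receptor by which lymphocytes leave lymphoid organs, had log2 ratios of -0.58, -0.84 and -0.82, and Il2rg, the shared chain of lymphoid cytokine receptors, had a mean of -0.55 ± 0.19 (SD, n = 3). Their means were -0.19 and -0.27 with array 2 turned. The survival gene Mcl1 had the lowest mean ratio of the list as labelled, from values of -2.16, -0.79 and -0.053 on arrays 1, 2 and 3, but not with array 2 turned, where it had -0.47 and the kinase gene Gsk3b -0.66. The Gabarap genes, partners of Gimap6, had means of 0.23 for Gabarap, -0.34 for Gabarapl1 and -0.084 for Gabarapl2. Turned, they had 0.27, -0.21 and 0.23.

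Markers of cells that could carry Gimap transcripts into the sort were read beside these values. Over all genes 54.6% had a mean log2 ratio below 0, and 51.7% with array 2 turned. Of 16 T cell markers, 14 (87.5%) were below 0 (median -0.28), and 6 with array 2 turned. As labelled, the log2 of the T cell markers' summed signal was 14.26 to 14.42 in Mef2c-deficient libraries and 14.54 to 14.73 in controls. Cd3g and Lck had the largest ratios, at -0.77 ± 0.20 and -0.53 ± 0.92 (SD, n = 3), or -0.26 and 0.53 with array 2 turned. Of these markers 14 were well above background in all 6 libraries, although the sort was against CD3, and Cd28 in no Mef2c-deficient library. Of 9 B cell markers 7 were below 0 (5 with array 2 turned), with summed signals of 13.47 to 14.27 in Mef2c-deficient libraries and 13.59 to 13.86 in controls. They were led by Vpreb1 at -0.52 and Cd79b at 0.48, or -0.085 and 0.59 with array 2 turned. Of 7 NK cell markers 6 were below 0 (2 with array 2 turned). They were led as labelled by Klrd1 at -1.09 and Klrb1c at -1.08, which had 0.23 and 0.30 with array 2 turned. Klrb1c had log2 ratios of 0.75, -2.07 and -1.93 and was well above background in 2 of 3 Mef2c-deficient libraries. The summed signals of all 7 were 14.84 to 15.23 in Mef2c-deficient libraries and 14.35 to 14.86 in controls. Most of that sum was Nkg7, the NK marker above 0 as labelled (mean 0.48). Alone it had 14.66 to 15.15 in Mef2c-deficient libraries and 14.07 to 14.64 in controls. Of 8 endothelial markers 6 were below 0 (4 with array 2 turned), with summed signals of 13.96 to 14.49 in Mef2c-deficient libraries and 14.46 to 14.71 in controls. They were led by Egfl7 at -0.88 and Plvap at 0.60, or 0.17 and 0.54 with array 2 turned. Stem cells share several of the endothelial markers. The part of T, B, NK and endothelial cells in the Gimap ratios was not tested. Of the gate's own genes Ly6a, which encodes Sca-1, had a mean of 0.82 ± 0.27 and Kit -0.36 ± 0.51 (SD, n = 3), or 0.48 and 0.067 with array 2 turned.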

How the data were processed

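Each array's deposited scanner output lists linear intensity values of every spot, written by Agilent's Feature Extraction 9.5.1.1, as well as the log10 of red over green, per the file headers. The authors also deposited log2 ratios, and the submitters' processing notes name limma, without a version. Their normalization was not stated in the labels or headers.

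A slide block was not possible, since the file headers put all 3 arrays on 1 slide. Mean foreground and median local background were corrected with limma's normexp (offset 50), arrays were normalized by loess with control spots at weight 0, and outlier spots (252 to 331 per array) were left out. Ratios are log2(mutant/control). For signals of single libraries, Aquantile normalization between arrays was added. Of 41174 probes 32909 were kept, those that 2 or more arrays read well above background in a given channel. Per channel 73.4% to 80.3% of spots were well above background and 0 were saturated. The number of arrays limits the precision.

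Names came from RefSeq (GRCm38.p6) by accession (22951 probes), symbol (6659) or synonym (3109), and 8455 kept the file's name. The probe with the highest mean intensity represented a gene. The test of each ratio against 0 used lmFit and eBayes of limma 3.58.1 (R 4.3.3), with Benjamini-Hochberg adjustment over all genes. The fit was tested on simulated data.

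Members and gene lists were chosen with earlier results of these data known. The text names all Gimap probes, Mef2c, the 5 genes nearest in pattern, 5 measured neighbours on either side, and of each list the called genes or else the 2 with the largest mean ratio. Protein sequences were not analysed here.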

Additional observations from a re-analysis of the deposited data

How the results depend on the processing

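The 12 alternatives were other background correction, normalization, signals, filters, probe choice and outlier handling, array 2 turned, each array left out, and the authors' deposited ratios. In those ratios the column of array 2 was put in the labelled direction by its correlation with the scanner's ratio. That setting therefore says nothing about the direction of array 2. By limma 0 genes passed in each alternative, as in the reported fit, with 643 to 2871 genes at an unadjusted p under 0.05. The median log2 ratio of the Gimap genes, -0.99 as reported, was -1.20 with median centring, which moved the median of all genes to -0.18, against -0.044 as reported, and -1.16 with the processed signals, -0.77 with the mean of a gene's probes and -0.14 with array 2 turned. Leaving out 1 array gave -0.88 to -0.79. The number of Gimap genes at an unadjusted p under 0.05 was 5 as reported, where 2251 of all genes had one. With array 2 turned it was 0, beside 643 of all genes. Without array 1 it was 6, namely 5 lower genes and the dim Gimap3, which was higher, beside 1297 of all genes. Without array 2 and without array 3 it was 4 each, beside 1807 and 2731 of all genes. Single genes changed sign in 5 cases: Gimap4 at 0.085 with array 2 turned, Gimap3 without array 3 (-0.061 to 1.26 with an array left out), and Gimap5 at -0.21 with median centring, -0.14 with the mean of its probes and without array 1 (-0.59 to 0.42 with an array left out). Of the other values of single genes 74 moved by less than their SD and 4 by more, all 4 with array 2 turned. Array 2 turned takes the opposite sign by construction, and the cause of the other changes was not tested. Gimap3 could not be fitted where both channels had to be well above background on all arrays. The fit was already paired, because each ratio sets the libraries of 1 array against each other, so no separate paired alternative was run. Depth does not apply to arrays, and the dim Gimap3 and Gimap5 probes lie near background. The mRNA probe of Gimap7 was dim too, at 8.05, 7.76 and 7.60 in Mef2c-deficient libraries, though well above background in every library. The lowest signals counted as well above background in those Mef2c-deficient libraries were 6.94, 6.70 and 7.17.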

Other observations

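The array design places 1 further probe inside the cluster, between its probes of Gimap6 and Gimap7 on chromosome 6, and it was looked at after the family's values were seen. It carries the name TC1433704, lies on the minus strand like Gimap6, and is assigned to no gene in the tables used here. Its log2 signal was 9.58, 10.48 and 9.71 in Mef2c-deficient libraries 1, 2 and 3, against 11.23, 11.19 and 10.82 in controls. The groups did not overlap, with the Mef2c-deficient side lower, as was found for 11.8% of all genes. As labelled, the log2 ratios of -1.66, -0.70 and -1.10 averaged -1.16 ± 0.48 (SD, n = 3). With array 2 turned they would not share a sign. In the design it starts at 48666332, nearer the Gimap6 probe (48661849) than the closest Gimap7 probe (48678890). Gimap6 spans 6662 bases in GRCm38.p6, so the probe may lie within that gene and need not be a separate feature. Whether it reads Gimap6 or another transcript was not tested.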
